A study of Danio rerio with 6 samples.

Results

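The annexin genes described here were the rows whose gene name was anxa1a, anxa1b, anxa1c, anxa2a, anxa2b, anxa3a, anxa3b, anxa4, anxa5b or anxa6. All 10 names were found, each in 1 row, among the 19071 genes listed for every library, and all 10 passed the filter on low values. Another 5 annexin genes were listed, anxa5a, anxa11a, anxa11b, anxa13 and anxa13l, and serve as a comparison within the family. The libraries were made from pools of whole zebrafish larvae at 3 dpf, with 3 libraries of P2RY11 mutants (p2ry11-/-) and 3 of WT siblings. Both groups came from matings of p2ry11+/- carriers of 1 line, in which CRISPR/Cas9 had left a small frameshift deletion in the second exon of p2ry11, so the mutation is present in all tissues of the mutants. P2RY11 is a receptor for extracellular ATP that is known from human leukocytes, and the comparison asks which mRNA levels differ when the gene is mutated.

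Annexins are proteins that bind acidic phospholipids of cell membranes when calcium rises. Each carries a conserved core of annexin repeats, which forms the calcium and membrane binding surface, and a variable amino-terminal tail, through which several of them bind S100 proteins. In mammals they help to seal torn plasma membranes, organize membrane domains and the actin cortex beneath them, and take part in exocytosis and endocytosis. Annexin A1 limits the entry of neutrophils into inflamed tissue and acts through formyl peptide receptors, annexin A2 binds plasminogen and its activator at the cell surface, and annexin A3 is abundant in neutrophil granules. Zebrafish keep several of these genes as paralogs, marked by letters such as a, b and c.

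Levels are given as FPKM, which corrects the fragments of a gene for its length and for the size of the library, so that levels of different genes can be set side by side. Differences are mutant minus WT sibling on the scale of log2(FPKM + 1), tested with limma over 18432 genes (mean FPKM 0.5 or more), and a gene was called at a Benjamini-Hochberg adjusted p under 0.05. In the WT siblings p2ry11 itself lay between 0.707 and 1.02 FPKM, and each mutant library listed it at 0, so it fell below that filter. WT sibling replicate 3 stood apart, with a median distance of 0.28 on the log2 scale from the rest of its group, against 0.12 to 0.20 in the other libraries. Across all tested genes the median difference was 0.16, and 67.4% of the called genes were higher in the mutants. This share was 38.9% with median-of-ratios scaling and 42.8% with quantile normalization, which placed the median difference at 0.012 and 0.0056. Directions of small differences therefore depend on the scaling, and those that turned are named below. Because whole larvae were sequenced, fewer cells of a type and less RNA per cell cannot be told apart.

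Of the 10 annexin genes, 1 was higher in the mutants and 2 were lower. The gene that rose was anxa2b, and those that fell were anxa2a and anxa3a. Among all tested genes, 8.23% were called higher and 3.98% lower, 12.2% in all. The 3 mutant values lay below the 3 WT sibling values in 5 members (anxa1c, anxa2a, anxa3a, anxa4 and anxa5b) and above them in 1 (anxa2b), where 11.7% of all tested genes lay wholly below and 35% wholly above (46.6% in either direction). The median difference of the 10 members was -0.09, which is -0.26 relative to the median of all genes, and 0.0087 after rescaling to TPM, -0.27 relative to all genes. With the thresholds of the study (fold above 1.5, unadjusted p under 0.05) applied to the limma fit, anxa2b was higher and anxa3a lower. The shares over all tested genes were 9.51% and 3.28%. The fold was taken from log2(FPKM + 1), so these are not the calls that the study itself made. Without WT sibling replicate 3, 2 members were called higher and 3 lower, in a fit that called 20.1% of all tested genes higher and 8.11% lower. Without mutant replicate 1, 2 or 3 only anxa3a was called, and without WT sibling replicate 1 anxa2b and anxa3a were.

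**Figure D1:**
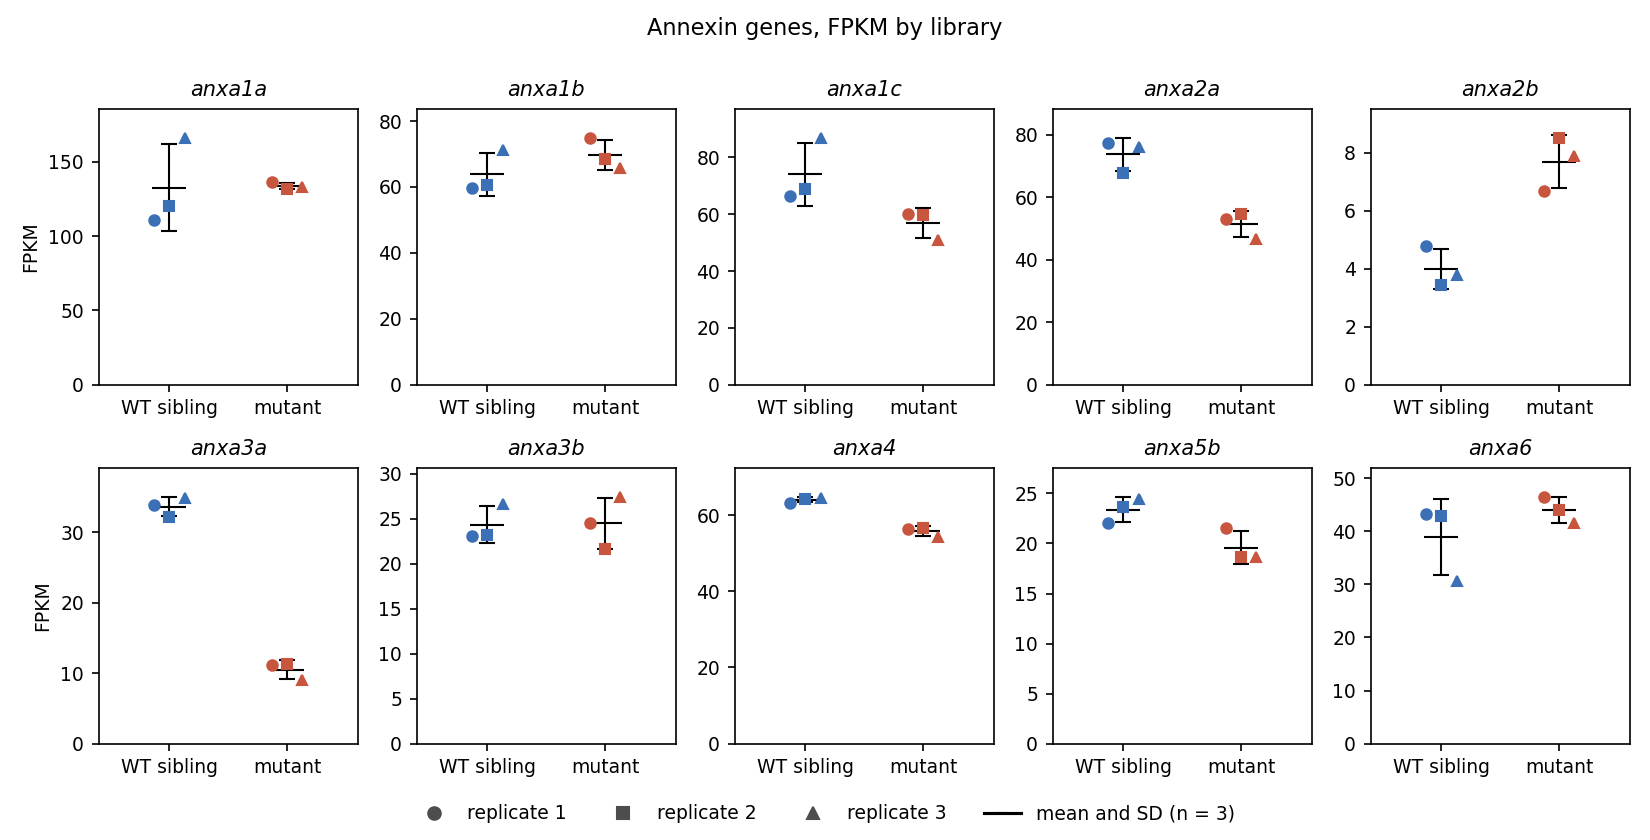
FPKM of the 10 annexin genes, 1 panel per gene with its own linear axis from 0, with 1 point per library for WT siblings (blue) and P2RY11 mutants (red), the symbol giving the replicate and the bars the mean and SD of each group (n = 3). The mutant points of anxa3a lie between 9.05 and 11.3, below the WT sibling points at 32.2 to 34.8, while in anxa1a, anxa1b, anxa3b and anxa6 the ranges of the groups overlap.

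The change furthest from 0 among the members was in anxa3a (ENSDARG00000009196), an ortholog of the granule-associated annexin A3. In order of replicate number, here and below, its FPKM was 33.9, 32.2 and 34.8 in WT siblings and 11.2, 11.3 and 9.05 in mutants. The spread within each group was small, and the lowest WT sibling lay far above the highest mutant. The means were 33.6 ± 1.31 and 10.5 ± 1.28 (SD, n = 3 each), a ratio of 3.20 of WT sibling over mutant. The log2 difference was -1.59 with an SE of 0.11 and a 95% confidence interval of -1.84 to -1.34, and the adjusted p from limma was 0.000915. Among the 733 genes called lower, anxa3a was number 26 by size of difference. It was called under each scaling and without any 1 of the 6 libraries, with adjusted p from 0.000121 to 0.0116. It was not called in an ordinary linear model with a library covariate (adjusted p = 0.129), in which 0 of all tested genes were called, 3665 of them at an unadjusted p under 0.05.

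The paralog anxa3b (ENSDARG00000044254) showed no such gap. Its FPKM was 23.1, 23.2 and 26.7 in the WT siblings and 24.5, 21.6 and 27.4 in the mutants, so the groups overlapped and shared a mean near 24.4. On the log2 scale the difference was 0.01 (95% confidence interval -0.26 to 0.27, limma adjusted p = 0.973), and it was -0.06 after quantile normalization and -0.18 after median-of-ratios scaling. In WT siblings anxa3a was the more abundant of the pair, with a ratio of anxa3a over anxa3b of 1.47, 1.39 and 1.31, and in mutants the less abundant, with ratios of 0.457, 0.524 and 0.331. A ratio within a library is not touched by scaling of the whole library. The log2 change of this ratio was -1.69, with p = 0.1 by the exact permutation test (both directions), which cannot go lower with 3 libraries in each group. Adjusted over the 5 ratios of paralogs that were compared, this p was 0.125.

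Since annexin A3 is known from neutrophils, markers of these cells stand beside the values of anxa3a. The summed FPKM of 7 neutrophil markers was 163, 153 and 207 in WT siblings and 106, 99.8 and 121 in mutants, with no overlap. Of the 7, 1 was called lower, lyz, which encodes a lysozyme of the granules, and 0 were called higher. Over all tested genes these shares were 3.98% and 8.23%. Most of each sum was lyz. The mutants lay wholly below the WT siblings in 5 of the 7, where 11.7% of all tested genes did. The FPKM of lyz was 117, 105 and 151 in WT siblings and 65.8, 56.5 and 76.6 in mutants, a log2 difference of -0.89 (SE 0.16, limma adjusted p = 0.021). It was no longer called when WT sibling replicate 1 (adjusted p = 0.0656) or mutant replicate 1, 2 or 3 was left out (0.0892, 0.0864 and 0.0632). The study measured lyz and mmp13a by qRT-PCR and showed npsn from these libraries, so the direction of these markers is not independent evidence. The paper places mmp13a with genes of macrophage chemotaxis, though it was listed here with the neutrophil markers. The gene of the defining granule enzyme myeloperoxidase, mpx, had FPKM of 4.99, 4.94 and 3.61 in WT siblings and 4.75, 4.99 and 5.50 in mutants, and these ranges overlapped. Of the other markers, npsn had a log2 difference of -0.40 and mmp13a of -0.35, and neither was called (limma adjusted p = 0.0813 and 0.138), though mmp13a was with quantile normalization (0.0464). For srgn and lect2l the differences were -0.29 and -0.18, and for mmp9, whose groups overlapped, 0.12. None of them was called (limma adjusted p = 0.159, 0.288 and 0.582). By Sudan Black staining the paper reports fewer neutrophils in the caudal hematopoietic tissue of mutants, and fewer at tail fin wounds. The part of neutrophil number in the level of anxa3a was not tested.

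Both annexin A2 genes changed, in opposite directions. The abundant paralog anxa2a (ENSDARG00000003216) had FPKM of 77.2, 67.7 and 76.0 in WT siblings and 53.1, 54.5 and 46.5 in mutants. All mutants lay below all WT siblings, and the means were 73.6 ± 5.16 and 51.4 ± 4.28 (SD, n = 3 each). The log2 difference was -0.51 with an SE of 0.10 and a 95% confidence interval of -0.74 to -0.29 (limma adjusted p = 0.0222), a fold of mutant over WT sibling of 0.698. Among the 733 genes called lower it was number 573 by size. The call was lost without WT sibling replicate 1 (adjusted p = 0.0774) and without mutant replicate 1, 2 or 3 (0.0867, 0.0742 and 0.10), while the difference stayed between -0.57 and -0.44. Leaving out any of these 4 libraries lowered the calls over all genes as well, to 117 to 215 higher and 76 to 162 lower.

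The scarce paralog anxa2b (ENSDARG00000053625) had FPKM of 4.78, 3.46 and 3.77 in WT siblings and 6.69, 8.50 and 7.89 in mutants. Here every mutant lay above every WT sibling. The means were 4.0 ± 0.69 and 7.70 ± 0.920 (SD, n = 3 each), a fold of mutant over WT sibling of 1.92. Its log2 difference was 0.80 with an SE of 0.14 and a 95% confidence interval of 0.46 to 1.14 (limma adjusted p = 0.0203), number 438 by size among 1517 genes called higher. It was no longer called without mutant replicate 1, 2 or 3 (adjusted p = 0.064, 0.089 and 0.0993), where the difference was 0.72 or more. The ratio of anxa2a over anxa2b was 16.2, 19.6 and 20.2 in WT siblings and 7.93, 6.41 and 5.89 in mutants, a log2 change of -1.47 (exact permutation p = 0.1, adjusted over 5 ratios 0.125). Despite the rise of anxa2b, anxa2a remained the more abundant gene in every library.

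Annexin A2 works in mammals as a tetramer with the S100 protein S100A10, for which zebrafish have a pair of genes. The FPKM of s100a10a was 7.58, 7.43 and 7.82 in WT siblings and 6.35, 5.33 and 5.26 in mutants, all mutants lower, with a log2 difference of -0.38 (SE 0.11, limma adjusted p = 0.0642). It was called lower with median-of-ratios scaling (-0.55, adjusted p = 0.0326), with quantile normalization (-0.55, 0.0214) and without WT sibling replicate 3 (-0.36, 0.0357). The more abundant s100a10b had 135, 139.6 and 214 in WT siblings and 168, 165 and 179.5 in mutants. WT sibling replicate 3 was the highest of the 6, and the groups overlapped. The log2 difference was 0.10 (limma adjusted p = 0.707), it was -0.10 after median-of-ratios scaling, and without WT sibling replicate 3 it was 0.31 with an adjusted p of 0.0106.

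Of the annexin A1 genes, none was called, and the signs of their differences were not the same. The most abundant annexin of both groups, anxa1a (ENSDARG00000026726), had FPKM of 111, 120.3 and 166 in WT siblings and 136, 132 and 133 in mutants. The mutants lay close together inside the range of the WT siblings, which WT sibling replicate 3 extended upward. On the log2 scale the difference was 0.04 with a 95% confidence interval of -0.31 to 0.38 (limma adjusted p = 0.879). It was 0.21 and called higher without WT sibling replicate 3 (adjusted p = 0.0404), and it was -0.16 after median-of-ratios scaling.

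For anxa1b (ENSDARG00000100095) the FPKM was 59.7, 60.6 and 71.3 in WT siblings and 74.7, 68.5 and 65.7 in mutants. The groups overlapped only through WT sibling replicate 3. The log2 difference was 0.13 (95% confidence interval -0.11 to 0.36, limma adjusted p = 0.385), and it was -0.07 after median-of-ratios scaling.

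The paper reports anxa1c (ENSDARG00000104359) as downregulated in mutants, among genes of the inflammatory response, from these same libraries. Its FPKM was 66.3, 68.9 and 86.7 in WT siblings and 60.1, 59.8 and 50.9 in mutants. The ratio of the means, WT sibling over mutant, was 1.3, while the study's threshold was a fold above 1.5. All mutants were lower, as in 11.7% of all tested genes, and this direction is not independent evidence. The means were 74.0 ± 11.1 and 56.9 ± 5.26 (SD, n = 3 each), and the log2 difference was -0.37 with an SE of 0.13 and a 95% confidence interval of -0.66 to -0.07. The limma adjusted p of 0.0906 missed the threshold, and it ranged from 0.0597 to 0.252 when 1 library was left out. No alternative setting brought a call, and in the ordinary linear model with a library covariate the difference was -0.14 (adjusted p = 0.691).

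The order of anxa1b and anxa1c differed between the groups. The ratio of anxa1b over anxa1c was 0.90, 0.879 and 0.822 in WT siblings and 1.24, 1.15 and 1.29 in mutants, below 1 in each WT sibling library and above 1 in each mutant library. Its log2 change was 0.50, and that of anxa1a over anxa1c was 0.41, each with an exact permutation p of 0.1 (0.125 adjusted over 5 ratios). The ratio of anxa1a over anxa1b was 1.86, 1.99 and 2.33 in WT siblings and 1.82, 1.93 and 2.02 in mutants, which overlapped (exact permutation p = 0.5). In the RefSeq annotation of another assembly, GRCz12tu, anxa1b and anxa1c are neighbors with 1 listed locus between them, and anxa1a and anxa3a lie on the same chromosome. A further gene, anxa1d, is listed there next to anxa1c and had no row by that name in these libraries. None of the 10 members lies on the chromosome of p2ry11. Reads that fit more than 1 of these related genes could be divided between them in the counting, and this was not tested.

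**Figure D2:**
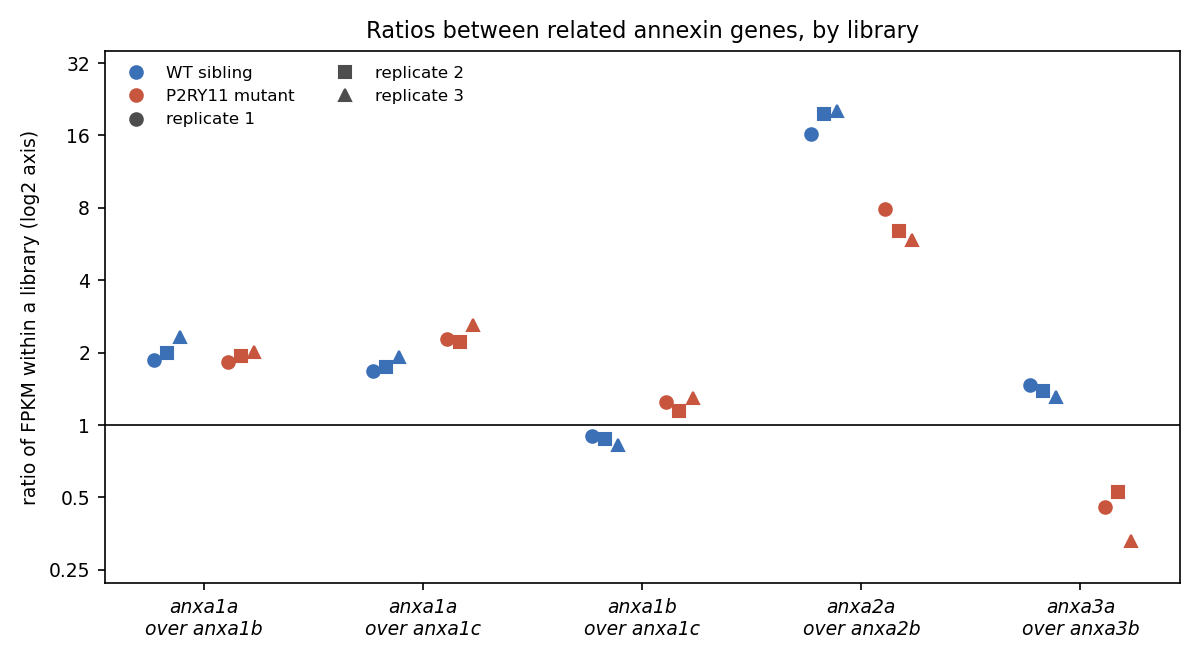
Ratio of FPKM between paralogs within each library on a log2 axis, with 1 point per library (WT siblings blue, mutants red, the symbol giving the replicate) and a line at a ratio of 1. The ratios of anxa3a over anxa3b and of anxa1b over anxa1c cross 1 between the groups in opposite directions, and that of anxa2a over anxa2b goes from 16.2 or more in WT siblings to 7.93 or less in mutants.

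The remaining members, anxa4, anxa5b and anxa6, differed little. Annexin A4 is a membrane protein of epithelia in mammals, and anxa4 (ENSDARG00000036456) had FPKM of 63.2, 64.3 and 64.4 in WT siblings and 56.4, 56.6 and 54.3 in mutants. All mutants were lower, and the coefficients of variation of 1.03% and 2.28% made it the member with the tightest WT siblings. Its log2 difference was only -0.20 (SE 0.07, 95% confidence interval -0.36 to -0.03), and the limma adjusted p of 0.0969 missed the threshold. Anxa4 was called lower after median-of-ratios scaling (adjusted p = 0.047) and without WT sibling replicate 3 (0.0479).

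Annexin A5 binds phosphatidylserine exposed on dying cells. The FPKM of anxa5b (ENSDARG00000016470) was 22.1, 23.6 and 24.5 in WT siblings and 21.5, 18.6 and 18.7 in mutants. The highest mutant lay just under the lowest WT sibling. The log2 difference was -0.25 (SE 0.09, 95% confidence interval -0.46 to -0.03, limma adjusted p = 0.111), and only quantile normalization brought a call, with an adjusted p of 0.041.

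Annexin A6 is the member with a duplicated core and is found in striated muscle among other tissues. The FPKM of anxa6 (ENSDARG00000013335) was 43.2, 42.8 and 30.6 in WT siblings and 46.4, 44.0 and 41.5 in mutants. WT sibling replicate 3 was the lowest of all 6 libraries, and the other libraries overlapped. On the log2 scale the difference was 0.19 (95% confidence interval -0.14 to 0.52, limma adjusted p = 0.360), 0.03 without WT sibling replicate 3 and slightly below 0 after median-of-ratios scaling.

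**Figure D3:**
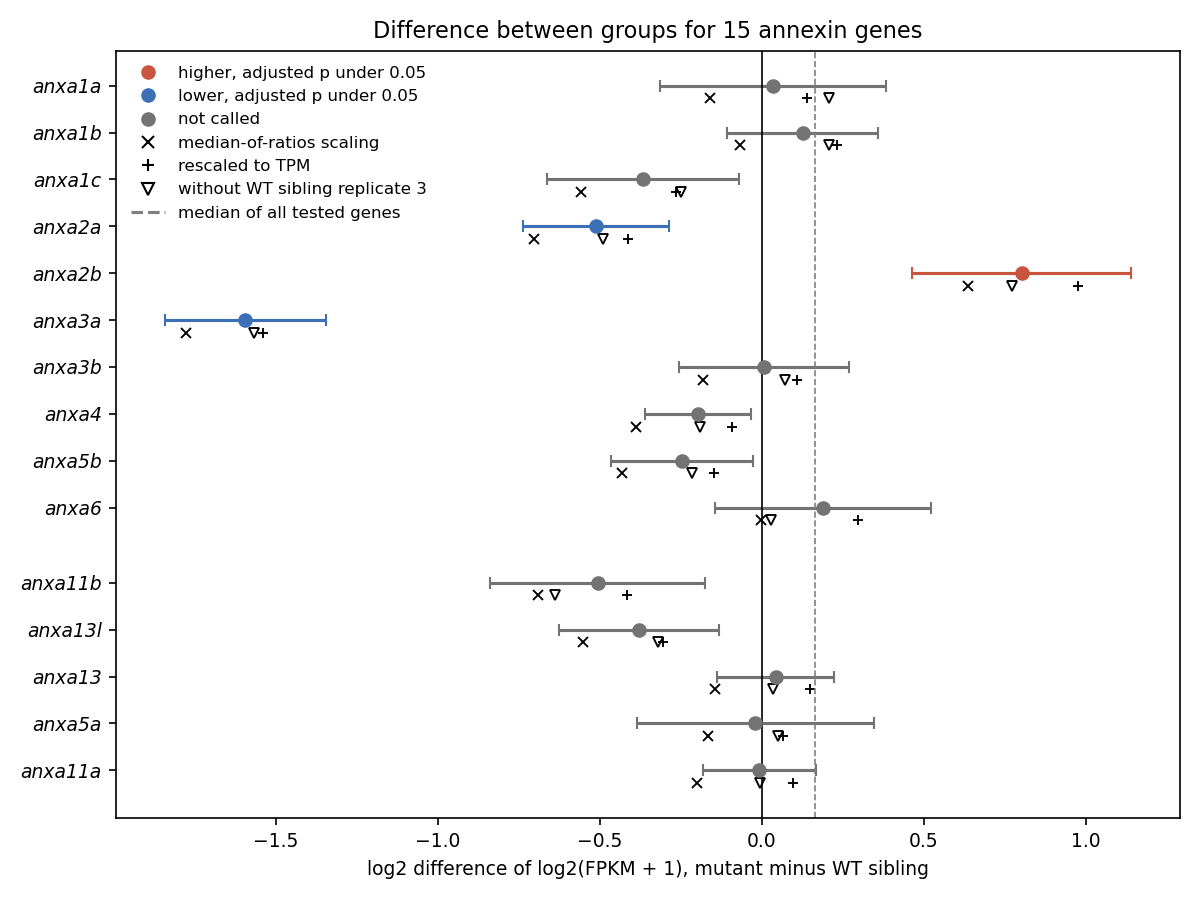
Log2 difference of mutants minus WT siblings, on log2(FPKM + 1), for the 10 annexin genes and the 5 other annexin genes, with bars for the 95% confidence interval from limma, a dashed line at the median of all tested genes, 0.16, and open or crossed symbols for the value with median-of-ratios scaling, with TPM and without WT sibling replicate 3. The colored points of anxa2a, anxa2b and anxa3a were called, the grey points were not, and anxa3a lies furthest from 0 at -1.59.

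By level, the order of the members in WT siblings was anxa1a, anxa1c, anxa2a, anxa4, anxa1b, anxa6, anxa3a, anxa3b, anxa5b and anxa2b, from a mean FPKM of 132 to 4.0. The ranges of anxa1c and anxa2a, of anxa4 and anxa1b, of anxa6 and anxa3a and of anxa3b and anxa5b overlapped, so these neighbors in the order did not differ beyond their spread. In mutants the order was anxa1a, anxa1b, anxa1c, anxa4, anxa2a, anxa6, anxa3b, anxa5b, anxa3a and anxa2b, from 134 to 7.70. Only the ranges of anxa1c and anxa4 and of anxa4 and anxa2a overlapped there. Anxa1b held the fifth place in WT siblings and the second in mutants, and anxa3a the seventh and the ninth, above only anxa2b.

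The summed FPKM of the 10 members was 505, 507 and 585 in WT siblings and 491, 476 and 455 in mutants. As the summed FPKM of whole libraries differed too, the members made up 0.112%, 0.114% and 0.117% of the library total in WT siblings and 0.115%, 0.11% and 0.105% in mutants, which overlapped. Within the sum, anxa3a made up 6.34% ± 0.375 of the WT sibling total and 2.22% ± 0.204 of the mutant total (SD, n = 3 each). The share of anxa2a was 13.9% ± 1.24 and 10.8% ± 0.620, and that of anxa1b was 12% ± 0.188 and 14.7% ± 0.463. Shares within a sum depend on one another, and anxa1b was not called.

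The other 5 annexin genes had 0 calls with limma. At an unadjusted p under 0.05, 2 were lower, where 6494 of all 18432 tested genes passed in either direction. Of these, anxa11b (FPKM 23.8, 26.0 and 18.7 in WT siblings and 16, 17.2 and 13.9 in mutants) had a log2 difference of -0.51 (SE 0.14, limma adjusted p = 0.0585). For anxa13l, with FPKM of 8.52, 8.54 and 9.76 in WT siblings and 7.03, 6.21 and 6.70 in mutants, it was -0.38 (SE 0.10, limma adjusted p = 0.058). In both genes all mutants were lower, as in 11.7% of all tested genes. Both were called without WT sibling replicate 3 (adjusted p = 0.00345 and 0.0333), in a fit that called 8.11% of all tested genes lower. They were also called with median-of-ratios scaling (0.0201 and 0.0396) and with quantile normalization (0.0351 and 0.0245). Those fits called 5.70% and 7.11% of all tested genes lower, against 3.98% in the main fit. The log2 differences of anxa13, anxa5a and anxa11a were 0.04, -0.02 and -0.01, with overlapping groups and limma adjusted p of 0.705 or more. The direction of these last 3 turned under other scalings. The median of the 5 was -0.02, against -0.09 for the 10 members and 0.16 for all tested genes.

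The S100 proteins, small calcium-binding partners of annexins, were listed with 14 genes, of which 13 were tested. Of these, 2 were called higher and 1 lower, against 8.23% and 3.98% of all tested genes. The gene that fell was s100a11, whose product binds annexin A1 in mammals. Its FPKM was 44.3, 38.8 and 79.7 in WT siblings and 23.6, 21.1 and 19.5 in mutants, all mutants lower, with WT sibling replicate 3 far above its group. The log2 difference was -1.24 (SE 0.25, limma adjusted p = 0.0263), and without WT sibling replicate 3 it was -0.93 (0.000898). The call was lost without WT sibling replicate 1 (adjusted p = 0.067) or mutant replicate 1, 2 or 3 (0.0924, 0.0998 and 0.116).

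Those that rose were s100u and s100w, members found in fish. The FPKM of s100w was 18.3, 18.3 and 25.4 in WT siblings and 29.0, 32.8 and 33.0 in mutants, and that of s100u was 20.7, 22.4 and 22.9 and 29.2, 28.5 and 28.9, with no overlap in either. Their log2 differences were 0.60 (SE 0.14, limma adjusted p = 0.0386) and 0.38 (SE 0.08, 0.0278). Both calls were lost after median-of-ratios scaling (adjusted p = 0.180 and 0.232) and when any library other than WT sibling replicate 3 was left out (up to 0.144 and 0.119). The median of the 13 genes was -0.13. Without WT sibling replicate 3 it was 0.02, with 4 called higher and 4 lower, where 20.1% and 8.11% of all tested genes were called. The summed FPKM of the list was 1792 in that library and 967 to 1103 in the other 5.

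**Figure D4:**
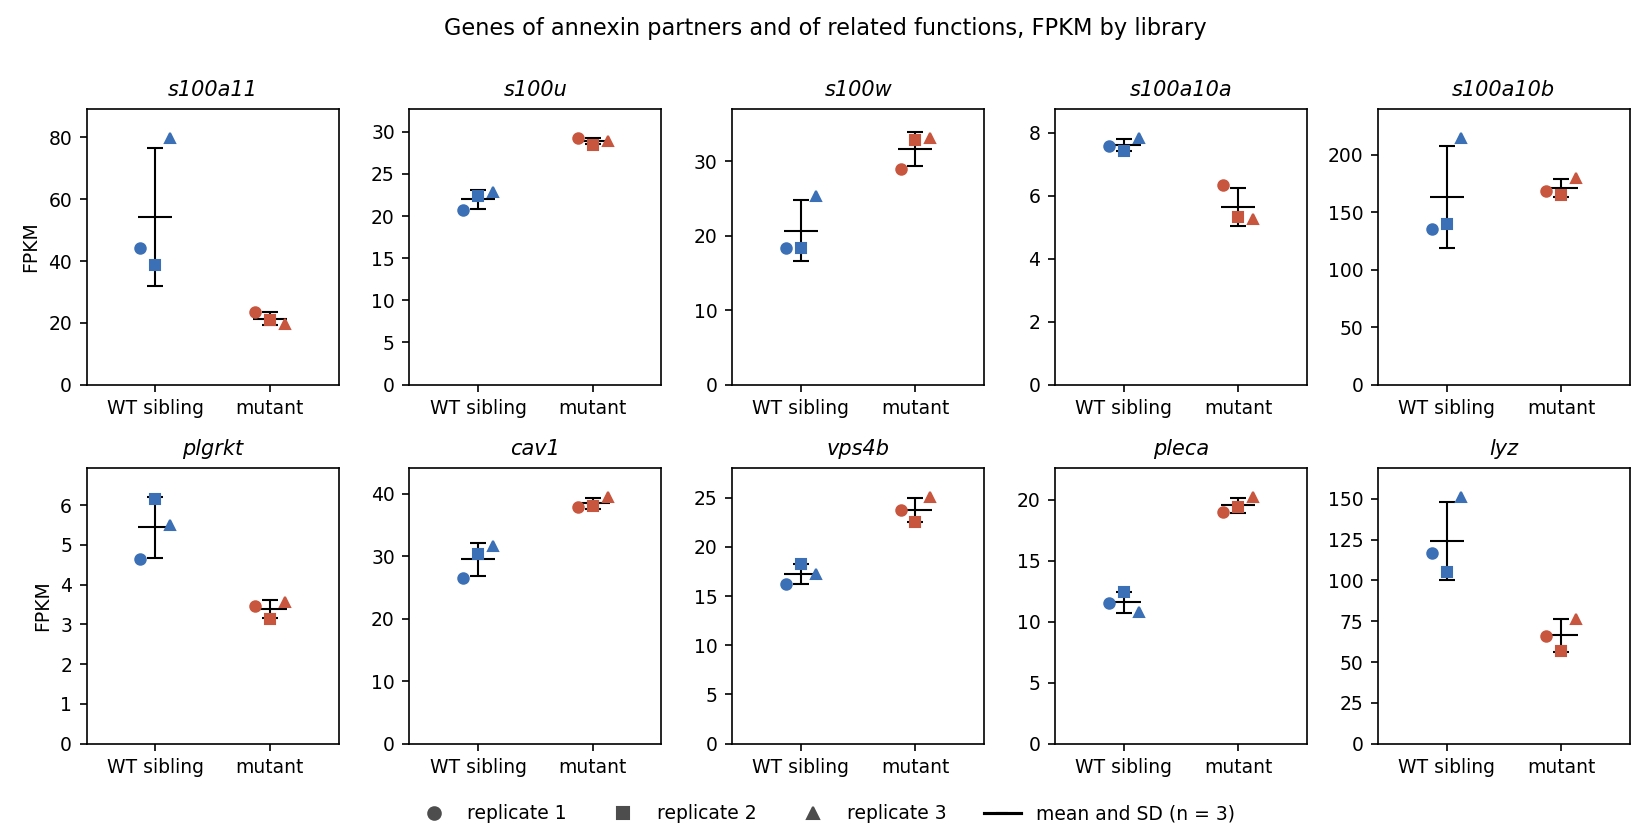
FPKM of genes of annexin partners and related functions, 1 panel per gene with its own linear axis from 0, with 1 point per library (WT siblings blue, mutants red, the symbol giving the replicate) and bars for the mean and SD of each group (n = 3). For s100a11 and lyz each mutant point lies below each WT sibling point, while for s100a10b WT sibling replicate 3 at 214 lies above all mutants.

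Of 32 tested genes of plasma membrane repair, the process in which annexins form caps at wounds, 3 were called higher and 0 lower. The shares over all tested genes were 8.23% and 3.98%. At an unadjusted limma p under 0.05, 10 of the 32 were higher and 3 lower, where 6494 of all 18432 tested genes passed in either direction. The called genes were vps4b, an ATPase that disassembles ESCRT filaments, cav1, the caveolar coat protein, and chmp2bb, an ESCRT subunit. Their log2 differences were 0.44, 0.37 and 0.29 (limma adjusted p = 0.0247, 0.0417 and 0.0439), and after median-of-ratios scaling none was called (0.127, 0.313 and 0.465). Without WT sibling replicate 1 or any 1 mutant library none of the 3 was called (adjusted p of up to 0.116, 0.153 and 0.156), nor were cav1 and chmp2bb without WT sibling replicate 2 (0.0635 and 0.0813) or without the mean-variance trend of the fit (0.0626 and 0.0754). The median of the list was 0.21, or 0.05 relative to all genes. Without WT sibling replicate 3 the list had 9 genes higher and 1 lower, where 20.1% and 8.11% of all tested genes were called.

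Annexin A2 brings the plasminogen system to the cell surface. Of 11 tested genes of the system, 1 was called lower, where 3.98% of all tested genes were. This was plgrkt, a plasminogen receptor of the plasma membrane, with FPKM of 4.65, 6.15 and 5.51 in WT siblings and 3.46, 3.14 and 3.56 in mutants. All mutants were lower, and the log2 difference was -0.55 (SE 0.13, limma adjusted p = 0.0407). The call was lost after rescaling to TPM (adjusted p = 0.0714) and without any library other than WT sibling replicate 3 (0.0709 to 0.129). The gene of a urokinase, plaub, and the carboxypeptidase gene cpb2 had log2 differences of 0.47 and -0.36 and were not called (limma adjusted p = 0.0747 and 0.120), though plaub was without WT sibling replicate 3 (0.0173). The median of the list was -0.11.

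Annexin A1 was first known to inhibit phospholipases A2. These and formyl peptide receptors gave 7 tested genes with 1 called higher, where 8.23% of all tested genes were. This was pla2g7, which encodes a secreted enzyme that breaks down platelet-activating factor, with a log2 difference of 0.54 (SE 0.09, limma adjusted p = 0.0169). It was not called after median-of-ratios scaling (adjusted p = 0.0626) or without WT sibling replicate 1 or mutant replicate 1, 2 or 3 (0.0662, 0.0824, 0.0707 and 0.0847). The receptor gene fpr1 had FPKM of 0.811 to 1.42 in WT siblings and 0.871 to 2.1 in mutants, which overlapped (limma adjusted p = 0.525). The lysosomal enzyme gene pla2g15 had a log2 difference of 0.21 and was not called (limma adjusted p = 0.144).

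Of 15 tested genes of the actin cortex and its membrane linkers, 2 were called higher and 0 lower. The shares over all tested genes were 8.23% and 3.98%. The cytolinker gene pleca had FPKM of 11.5, 12.4 and 10.8 in WT siblings and 19.0, 19.4 and 20.2 in mutants, a log2 difference of 0.71 (SE 0.09, limma adjusted p = 0.00772). It was called in all settings but the model with a library covariate and the fit without mutant replicate 3 (adjusted p = 0.0571). The actin-bundling gene pls3 had 56.8, 62.6 and 54.6 in WT siblings and 83.4, 83.7 and 90.9 in mutants, a log2 difference of 0.56 (SE 0.09, limma adjusted p = 0.0132), and was not called without WT sibling replicate 1 or mutant replicate 1, 2 or 3 (0.056, 0.064, 0.0656 and 0.0772). Plecb, the paralog of pleca, had a log2 difference of 0.61 and was not called (limma adjusted p = 0.0583), but was without WT sibling replicate 2 or 3 (0.0485 and 0.00871). The list's median was 0.21, or 0.05 relative to all genes. Without WT sibling replicate 3 the list held 5 genes higher and 1 lower, where 20.1% and 8.11% of all tested genes were called.

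Markers of other cells that express annexins stand beside these values. Annexin A1 and annexin A2 are abundant in skin in mammals, and of 16 tested epidermis and periderm markers, 1 was called higher, evpla (log2 difference 0.79, limma adjusted p = 0.0147), and 1 lower, cyt1 (-0.87, 0.0214). Over all tested genes 8.23% were called higher and 3.98% lower. Without WT sibling replicate 3, 1 of these markers was called higher and 5 lower, where 20.1% and 8.11% of all tested genes were called. The summed FPKM of the 16 markers was 6710 to 8010 in mutants and 7508 to 8946 in WT siblings, which overlapped. Cyt1, a type I keratin gene, had FPKM of 1172, 937 and 996 in WT siblings and 582, 664 and 465 in mutants. Neither evpla nor cyt1 was called without WT sibling replicate 1 or mutant replicate 1, 2 or 3, with adjusted p of up to 0.0741 and 0.0920, nor was cyt1 after quantile normalization (0.0696).

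Of 5 macrophage markers listed, 4 were tested and 0 were called by limma, with summed FPKM of 8.91 to 10.8 in WT siblings and 8.75 to 14.1 in mutants. The marker below the filter, c1qb, had FPKM of 0.472, 0.815 and 0.325 in WT siblings and 0.126, 0.206 and 0 in mutants. Among those tested mfap4 was higher in all mutants (log2 difference 0.49, limma adjusted p = 0.0713, and 0.038 without WT sibling replicate 3). The groups overlapped in csf1ra, marco and mpeg1.1 (log2 differences 0.36, -0.22 and 0.07, limma adjusted p = 0.413, 0.486 and 0.849). The paper reports mpeg1 as reduced in mutants by RNA-seq and by qRT-PCR, and fewer macrophages by neutral red staining. Whether its mpeg1 is the gene listed here as mpeg1.1 is not given in the paper. All 5 listed red blood cell markers were called lower, where 3.98% of all tested genes were. The summed FPKM of these markers was 3301 to 4380 in WT siblings and 1274 to 1458 in mutants. Of the 5, 4 were called after median-of-ratios scaling and 2 without mutant replicate 1 or 3. With the library covariate 0 were, as of all tested genes. Markers of skeletal muscle, liver, intestine and neurons had 5 to 9 listed genes each, none of them at 0 in a library. Each list had 0 to 1 called genes in each direction, where 8.23% of all tested genes were called higher and 3.98% lower. Without WT sibling replicate 3, skeletal muscle had 0 higher and 4 lower, intestine 3 and 1, liver 1 and 1, and neurons 1 and 0. That fit called 20.1% of all tested genes higher and 8.11% lower. The intestine marker anpepb, the liver marker ttr, the red blood cell marker hbae1.1 and the epidermis marker krt91 had no row by that name. The same held for the macrophage markers c1qa, c1qc and grn1. The part of each of these cell types in the levels of the annexins was not tested.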

How the data were processed

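RNA of pooled larvae at 3 dpf was sequenced in 6 libraries, 3 of P2RY11 mutants and 3 of WT siblings. The authors trimmed reads with cutadapt 1.17, aligned them with HISAT2 2.1.0, assembled and quantified with StringTie 1.3.3 and deposited FPKM per gene from Ballgown. The paper names the zebrafish assembly GRCz11 and the submitters' processing notes name GRCh37, while all gene IDs are of zebrafish. The unit is missing from the header of 2 tables, whose values lie in the range of the others. Strand setting and gene filters are not given in the sources used here. Counts were not used and could not be recovered from FPKM, which leaves the depth unknown and the counting error without a value. Summed FPKM was 426645 to 499493 per library. Whether separate clutches were pooled is not given in the sources used here, so the p-values reflect only how these libraries vary.

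From the deposited FPKM, log2(FPKM + 1) was tested for 18432 genes (mean FPKM 0.5 or more), using limma 3.58.1 in R 4.3.3 (eBayes with a mean-variance trend, p-values in both directions, Benjamini-Hochberg adjustment over all tested genes, no covariate). The fit was tested on simulated data. Ratios of paralogs were compared by an exact permutation test in both directions with scipy 1.17.1, whose smallest p for 3 against 3 is 0.1. The ratios were chosen after values had been seen. The members, the gene lists and the tests were chosen with earlier results of these data known. The genes named were all 10 members, the 5 other annexin genes, p2ry11, up to 3 genes with the smallest p of each list and genes behind small counts. The genes s100a10a and s100a10b were singled out as the known partner of annexin A2, and mpx as a defining marker. Gene neighbors came from a RefSeq table of the assembly GRCz12tu, which matched all 10 members by symbol. No sequences are shown.

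Alternatives were pseudocounts of 0.1 and 0.5, no filter or a minimum mean FPKM of 1, and TPM, median-of-ratios and quantile scaling. Others were no mean-variance trend, a library covariate in an ordinary linear model and a replicate block. The last were the study's thresholds applied to the limma fit and leaving out each library.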

Additional observations from a re-analysis of the deposited data

How the results depend on the processing

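Of the members, 1 was called higher and 2 lower. With the replicate block these counts were 0 and 1, and with the library covariate 0 and 0. The study's thresholds applied to the limma fit gave 1 and 1. Leaving out 1 library gave 0 to 2 higher and 1 to 3 lower, with 2 and 3 without WT sibling replicate 3. Whether equal replicate numbers pair the libraries is not given in the sources used here, and the values do not settle it. Correlations of same-numbered deviations were 0.016, 0.072 and 0.138, and those of different numbers -0.132 to 0.113. WT sibling replicates 2 and 3 correlated best with the mutant of the same number, and WT sibling replicate 1 with mutant replicate 2 (0.113). With the block, adjusted p from limma was 0.0512 for anxa2a, 0.0506 for anxa2b and 0.006 for anxa3a. It was 0.0463 for anxa11b, which was thereby called lower, while s100u (0.0672), vps4b (0.0595), cav1 (0.069), chmp2bb (0.0925), plgrkt (0.077) and pla2g7 (0.0505) lost their calls.

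Directions turned in genes that were not called. After median-of-ratios scaling the log2 differences were -0.16 for anxa1a, -0.066 for anxa1b, -0.18 for anxa3b, -0.00075 for anxa6, -0.14 for anxa13, -0.10 for s100a10b and -0.0099 for mpx. After quantile normalization they were -0.060 for anxa3b, -0.028 for anxa13, 0.0032 for anxa11a, -0.053 for fpr1 and -0.059 for mpx. After rescaling to TPM they were 0.067 for anxa5a and 0.10 for anxa11a. With the library covariate they were -0.17 for anxa6, 0.20 for anxa5a, -0.0086 for fpr1, -0.42 for csf1ra and -0.10 for mpx. Leaving out 1 library gave -0.079 to 0.21 for anxa1a, -0.074 to 0.089 for anxa3b, -0.14 to 0.076 for anxa5a, -0.039 to 0.013 for anxa11a, -0.018 to 0.31 for s100a10b and -0.010 to 0.35 for fpr1. The ratios of paralogs kept their direction, and moved by less than 1 SD of the log2 ratio between replicates, in all 35 alternatives. These were chosen after seeing the data. Where they left out 1 library the check could not fail, because this cannot shift a group mean by 1 SD of that group. Nor can it reverse a ratio whose groups do not overlap, so no stability is read from these alternatives. The groups overlapped for anxa1a over anxa1b, with a log2 change of -0.092. This change ranged from -0.16 to -0.00033 when 1 library was left out.

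Over all genes, 1517 were called higher and 733 lower. These counts were 980 and 1310 after quantile normalization, 668 and 1050 with median-of-ratios scaling, 672 and 404 with the replicate block, 0 and 0 with the library covariate, and 117 to 3712 and 76 to 1495 when 1 library was left out. The cause of these shifts was not tested. Depth is unknown, so no limit of detection can be given.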
